A study of Mus musculus with 6 samples.

Results

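Amacrine cells are interneurons of the inner retina that shape the signals passing from bipolar cells to ganglion cells. Most of them release GABA or glycine, starburst amacrine cells release acetylcholine as well, and a sparse class releases dopamine. The 9 genes described here mark these classes: Gad1 and Gad2 (GABA), Slc6a9 (glycine), Chat and Slc18a3 (acetylcholine), Th (dopamine), Calb2 (a calcium-binding protein of several classes), and the transcription factors Tfap2a and Tfap2b. The rule names them by symbol and uses no measured value, but they were chosen with earlier results of these data known. All 9 are among the 24346 gene symbols of each deposited table.

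The 6 libraries were made from the retinas of 12-day-old (P12) mice. All of them lacked Nrl (Nrl-/-), the factor that sets the rod fate, and such retinas are rich in cone-like photoreceptors. The 3 control libraries were Panky+/- and Panky-like+/-, so that the controls carried 1 mutant copy of each gene, and the 3 triple-deficient libraries were Panky-/- and Panky-like-/-. Panky (Ankrd33) and Panky-like (taken here to be its paralog Ankrd33b, which the labels do not state) are transcriptional co-repressors. The labels name no Cre or promoter that would limit the loss to one cell type. The series names cones as the cells of interest, and the question asked of the amacrine markers was whether the transcripts of these inner neurons differed between the genotypes. The design text speaks of littermates, but the labels do not tie a library to an animal or say whether retinas were pooled, so the p-values cover only the spread between these samples.

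No amacrine marker was called different between the genotypes: 0 of 9 passed limma at an adjusted p below 0.05, where 0.0279% of the 14325 genes tested did, and none had an unadjusted p below 0.05, where 5.09% did. Values are given in FPKM (fragments per kilobase, relative to the size of the library), and a change is the mean log2(FPKM + 1) of the triple-deficient libraries less that of the controls, a scale on which low genes appear to change less than they do. For all 9 genes the control and triple-deficient values overlapped, and over all genes tested the share whose groups did not overlap was 10.5%. With only 9 genes, counts of 0 lie near these shares and show nothing particular to the markers. The summed level of the 9 markers was 486 to 526 FPKM in the controls and 497 to 513 FPKM in the triple-deficient libraries. For 7 of the 9 changes both ends of the 95% interval were smaller than 1.2-fold of FPKM + 1, as they were for 65.2% of all genes tested, and the other 2 genes were Slc18a3 and Th. In whole tissue, fewer cells of a type and less RNA per cell cannot be told apart.

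As to the libraries, the files hold no read totals, but the steps between low FPKM values put the depth at about 18.1 to 27.1 M fragments per library, triple-deficient 3 being the shallowest. Ankrd33b was at 32.6 to 35.4 FPKM in the controls and 1.31 to 1.81 FPKM without Panky-like, and Ankrd33 at 104.0 to 109.7 and 50.5 to 59.6 FPKM, and both fell (limma adjusted p = 4.56e-07 and 0.00274). Nrl transcripts were at 38.4 to 49.2 and 51.4 to 53.7 FPKM, and these values, like those of Ankrd33, are over the whole gene and do not check the deleted part. Triple-deficient 3 stood apart in base composition: across 14223 genes (not independent replicates), the Spearman correlation of GC content with its deviation from the mean of all libraries was -0.59, and the other 5 libraries had 0.07 to 0.30. That mean includes triple-deficient 3, so its trend moves the deviations of the other 5 the opposite way.

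The glycine marker Slc6a9, with 3 listed starts, is not shown in what follows. Stretches upstream of the annotated starts are shown for the other neurotransmitter genes, since Gad1 and Gad2 differ in level and Chat and Slc18a3 share a locus but differ in base composition. They are RefSeq sequences of GRCm38.p6, the mm10 build, each beginning 250 bases before the start and ending before any annotated untranslated region: Gad1 at chr2:70561879-70562041 on the plus strand, Gad2 at chr2:22622077-22622204 on the plus strand, Chat at chr14:32465990-32466159, Slc18a3 at chr14:32464851-32465100 and Th at chr7:142900015-142900245, the last 3 on the minus strand. The starts are those of the promoter table, and for Gad1 and Gad2 they lie inside the gene bounds given below, downstream of the outermost start. Capitals mark matches, on either strand, to TAATCC (bound by the photoreceptor factor CRX), TGACGTCA (the cyclic AMP response element), GCCNNNGGC (bound by AP-2 factors such as Tfap2a and Tfap2b), TATAAA (the TATA box) or GGGCGG (bound by Sp1).
Gad1: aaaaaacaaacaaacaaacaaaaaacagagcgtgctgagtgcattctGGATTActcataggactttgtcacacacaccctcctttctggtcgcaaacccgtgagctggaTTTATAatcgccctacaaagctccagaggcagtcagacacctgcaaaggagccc
Gad2: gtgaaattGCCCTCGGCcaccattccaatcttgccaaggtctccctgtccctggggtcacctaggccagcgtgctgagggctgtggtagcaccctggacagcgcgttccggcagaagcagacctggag
Chat: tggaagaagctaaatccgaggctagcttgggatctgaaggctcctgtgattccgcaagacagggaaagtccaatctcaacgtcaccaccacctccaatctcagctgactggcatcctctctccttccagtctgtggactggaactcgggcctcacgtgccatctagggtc
Slc18a3: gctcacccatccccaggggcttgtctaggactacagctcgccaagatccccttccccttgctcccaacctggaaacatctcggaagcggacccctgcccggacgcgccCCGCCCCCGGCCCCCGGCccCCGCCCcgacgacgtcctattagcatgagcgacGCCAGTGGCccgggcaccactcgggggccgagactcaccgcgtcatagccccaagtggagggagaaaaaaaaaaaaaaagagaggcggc
Th: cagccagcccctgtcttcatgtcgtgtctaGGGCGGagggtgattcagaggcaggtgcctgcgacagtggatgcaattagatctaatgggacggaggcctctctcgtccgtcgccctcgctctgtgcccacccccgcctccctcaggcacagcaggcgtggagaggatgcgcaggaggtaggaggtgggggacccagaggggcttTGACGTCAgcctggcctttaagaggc

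In the full 250 bases before each start, TGACGTCA was found in 1.5% of 32851 windows of all genes, and of the 5 genes shown it was found in Th, 45 bases before the start. GCCNNNGGC was found in 13.7% of all windows, with 2 matches for Gad2, at -242 and -121, and 3 for Slc18a3, at -140, -133 and -89. The first 2 of those in Slc18a3 overlap each other, and the one at -140 also overlaps a GGGCGG match at -142. TAATCC (6.3% of all windows) and TATAAA (12.4%) were found only for Gad1 among the 5, at -203 and -141. Both of these matches read on the strand opposite to the gene. GGGCGG (32.7%) was found for Gad1, Slc18a3 and Th. The window of Chat held none of these letters. GC content was 54.8% before Chat and 66.0% before Slc18a3, where the median of all windows was 52.4%.

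Apart from Chat and Slc18a3, the order of the levels was the same in all 6 libraries. Calb2 was highest, at 237.2 to 270.2 FPKM, followed by Gad1 (81.9 to 86.6), Tfap2b (62.9 to 68.6), Slc6a9 (52.1 to 62.4), Tfap2a (15.7 to 19.15) and Gad2 (10.15 to 11.68). Chat (5.14 to 6.01 FPKM) and Slc18a3 (3.19 to 6.10 FPKM) overlapped in level, and Th was lowest at 1.05 to 1.67 FPKM. Apart from Chat and Slc18a3, neighbours in this order did not overlap in FPKM, the closest being Tfap2b and Slc6a9, with Tfap2b the higher in 6 of 6 libraries. Calb2 lay above 98.7% of the genes tested and Th above 9.8%.

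**Figure D1:**
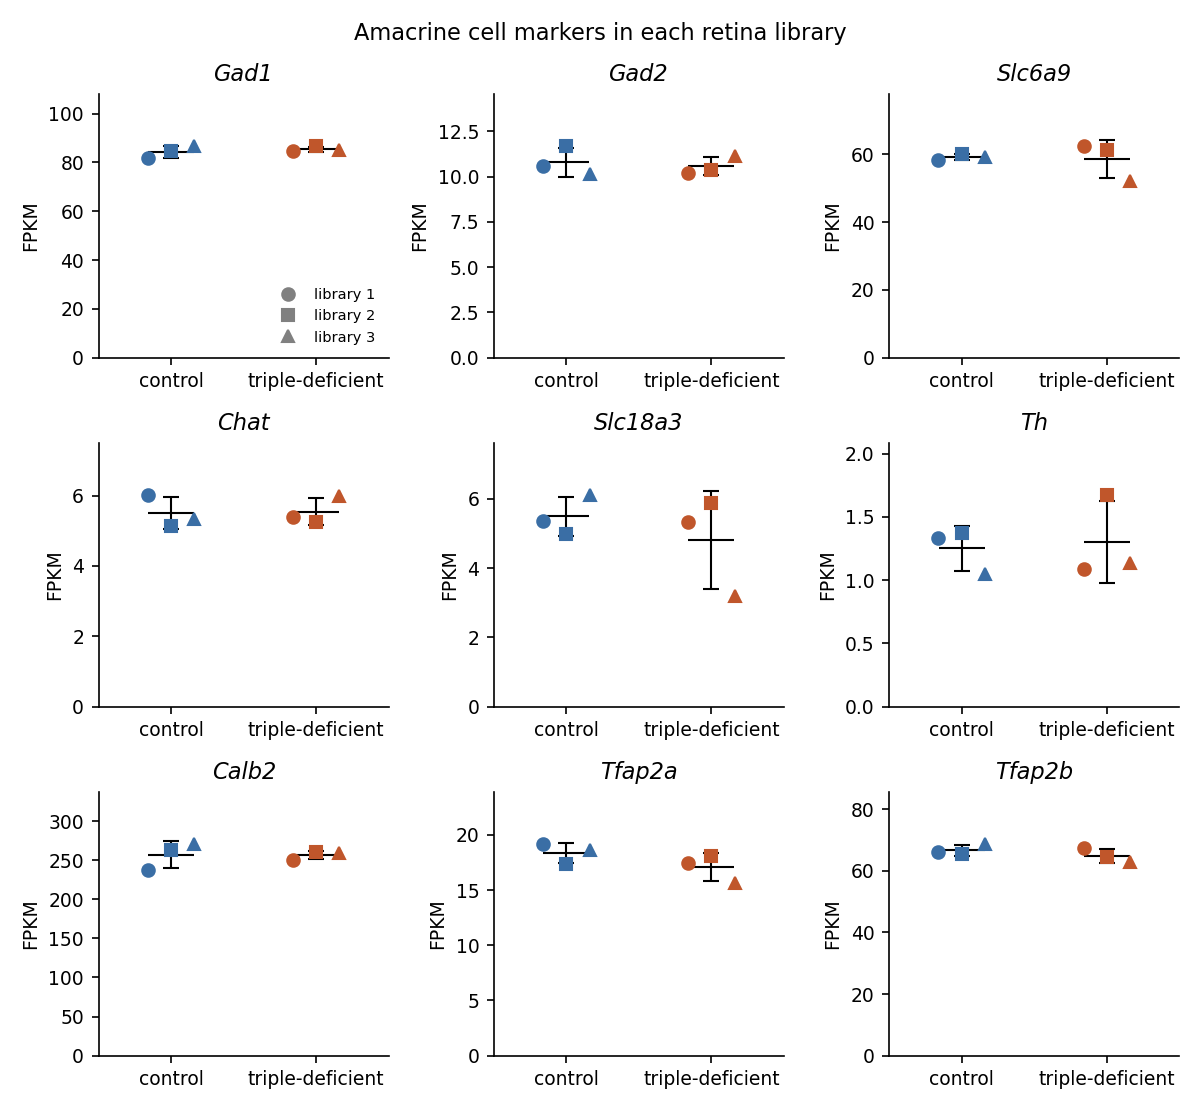
Each panel plots the FPKM of 1 amacrine marker (vertical axis, from 0) in the 3 control and 3 triple-deficient libraries, with a symbol for each library number, the mean as a line and the SD as a bar. The groups overlap in all 9 panels. Triple-deficient 3 lies below the other 5 libraries for Slc6a9, Tfap2a, Tfap2b and Slc18a3, the last at 3.19 FPKM.

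Gad1 and Gad2 encode the 2 glutamate decarboxylases, GAD67 and GAD65, that make GABA from glutamate. Gad1 (chromosome 2, 70561303 to 70602014) was at 81.9, 84.6 and 86.6 FPKM in controls 1, 2 and 3 and at 84.5, 86.5 and 85.1 FPKM in triple-deficient 1, 2 and 3. The 6 values lay close together, with no library apart. Its change was 0.02 (95% interval -0.08 to 0.11, limma adjusted p = 0.979), and its spread within groups (SD 0.031 on the log2 scale) was smaller than that of all but 5.6% of the 500 genes nearest in level. An antisense gene, Gad1os, overlaps Gad1 and was at 0.059 to 0.294 FPKM. Whether the authors counted by strand is not stated, so reads of the pair may be mixed.

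Gad2 (chromosome 2, 22621015 to 22693877) was at 10.58, 11.68 and 10.15 FPKM in the controls, against 10.22, 10.36 and 11.14 FPKM in the triple-deficient libraries. Control 2 was highest and control 3 lowest, so the controls spanned all triple-deficient values. The change was -0.03 (95% interval -0.18 to 0.13, limma adjusted p = 0.979). Per length of transcript, Gad1 exceeded Gad2 in 6 of 6 libraries, with a ratio of 7.84 ± 0.652 in controls and 8.09 ± 0.389 in triple-deficient libraries (SD, n = 3).

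Slc6a9 encodes GlyT1, the plasma membrane transporter that takes glycine into glycinergic amacrine cells. It lies on chromosome 4 (117835258 to 117869305) and was at 58.2, 60.0 and 59.2 FPKM in controls 1, 2 and 3 and at 62.4, 61.3 and 52.1 FPKM in triple-deficient 1, 2 and 3. Triple-deficient 1 and 2 were the highest of the 6 libraries and triple-deficient 3 the lowest. The change was -0.02 (95% interval -0.17 to 0.14, limma adjusted p = 0.988). Without triple-deficient 3 it was 0.06 (-0.03 to 0.16, limma adjusted p = 1), and with the GC and length trends of each library removed it was 0.02 (-0.08 to 0.11). The matched transcript of Slc6a9 has 57.0% GC, above that of 86.1% of genes tested. On the opposite strand Ccdc24 (17.7 to 22.8 FPKM) and B4galt2 (25.1 to 28.3 FPKM) overlap the 3′ end of Slc6a9, so here too reads may be mixed.

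Chat and Slc18a3 form the cholinergic locus, in which Chat encodes choline acetyltransferase and Slc18a3 the vesicular acetylcholine transporter. The Slc18a3 gene, with 1 exon (chromosome 14, 32462437 to 32464850), lies on the same strand inside intron 1 of Chat (32408203 to 32465909), and its exon overlaps no exon of the matched Chat transcript. Unspliced Chat RNA could add fragments to Slc18a3, and the tables do not separate them. Chat was at 6.01, 5.14 and 5.34 FPKM in the controls, against 5.40, 5.24 and 5.98 FPKM in the triple-deficient libraries. Its highest values were in control 1 and triple-deficient 3, 1 library of each group. The change was 0.01 (95% interval -0.17 to 0.19, limma adjusted p = 0.995).

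Slc18a3 was at 5.37, 4.99 and 6.10 FPKM in controls 1, 2 and 3 and at 5.34, 5.89 and 3.19 FPKM in triple-deficient 1, 2 and 3. Triple-deficient 1 and 2 lay within the controls' range, and triple-deficient 3 lay below every other library. The change was -0.19 (95% interval -0.58 to 0.21, limma adjusted p = 0.958), the widest interval of the 9 genes. Without triple-deficient 3 the change was 0.03 (-0.18 to 0.24, limma adjusted p = 1). The ratio of Slc18a3 to Chat was 0.894, 0.972 and 1.14 in the controls, 0.99 and 1.12 in triple-deficient 1 and 2, and 0.534 in triple-deficient 3. That library thus held the lowest Slc18a3 value and the second highest Chat value.

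The transcript of Slc18a3 has 61.2% GC, above that of 97.2% of genes tested, against 54.3% for Chat. Of the 712 genes with the highest GC content (59.9% or more), 75.4% had their lowest value in triple-deficient 3, against 26.4% of all genes tested. For those GC-rich genes, triple-deficient 3 minus the mean of the other 5 libraries had a median of -0.25 on the log2 scale. For Slc18a3 the difference was -0.64, lower than for all but 6.9% of them. With the GC and length trends removed, the change of Slc18a3 between genotypes was -0.07 (95% interval -0.37 to 0.24). By the estimated depth, about 140 fragments of Slc18a3 were counted in triple-deficient 3 and 291 to 349 in the other libraries.

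**Figure D2:**
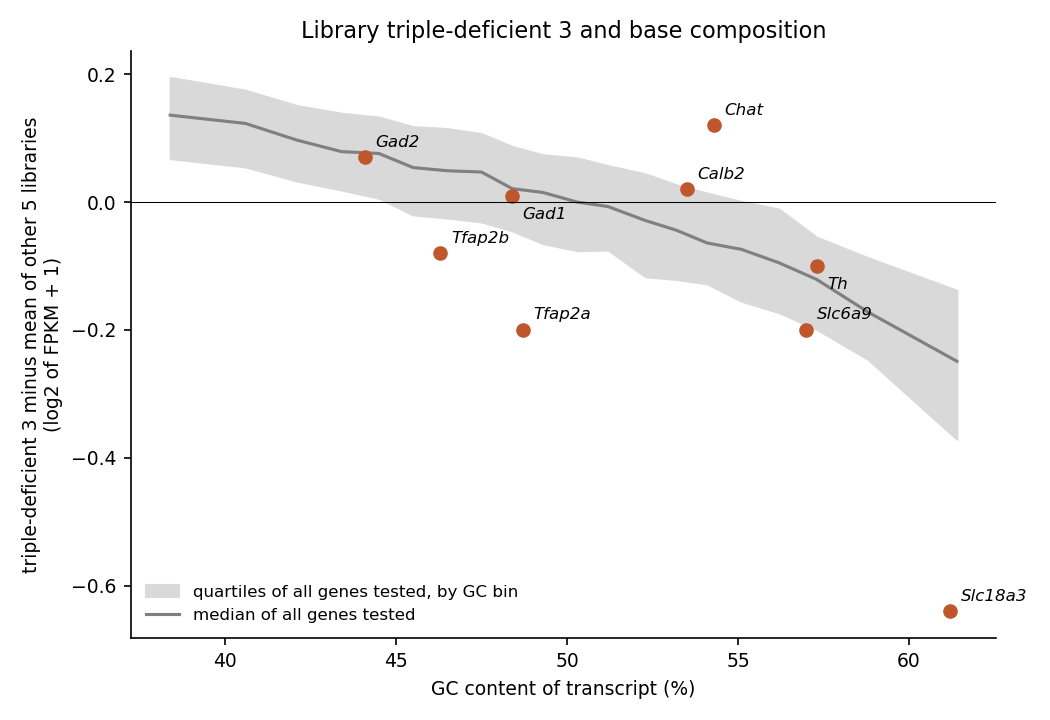
The horizontal axis is GC content in percent, of the longest transcript for the line and band and of the matched transcript for the points. These differ for Gad1 (47.3% and 48.4%) and Th (54.1% and 57.3%). The vertical axis is the log2(FPKM + 1) value of triple-deficient 3 minus the mean of the other 5 libraries. The line and band are the median and quartiles of all genes tested in 20 bins of GC content, and points are the 9 markers. The line falls from 0.136 in the bin of lowest GC content to -0.249 in the highest. Slc18a3, at -0.64, Tfap2a, at -0.2, and Tfap2b, at -0.08, lie below the band, and Chat, at 0.12, lies above it.

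Th encodes tyrosine hydroxylase, the rate-limiting enzyme of dopamine synthesis, and lies on chromosome 7 (142892779 to 142899995). It was at 1.33, 1.37 and 1.05 FPKM in the controls, against 1.09, 1.67 and 1.14 FPKM in the triple-deficient libraries. Triple-deficient 2 was highest and control 3 lowest, and the other 4 values lay between them in both groups. The change was 0.02 (95% interval -0.25 to 0.30, limma adjusted p = 0.992). About 38 to 65 fragments stood behind each value, for which counting alone gives a coefficient of variation of 13.8%. The observed coefficients were 14.3% in controls and 25.0% in triple-deficient libraries. The smallest difference in Th that could be detected was not computed, and the 95% interval above gives the range of changes that the fit allows.

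Calb2 encodes calretinin, a calcium-binding protein of several amacrine classes, which some ganglion cells also contain. It lies on chromosome 8 (110142526 to 110168212) and was at 237.2, 263.5 and 270.2 FPKM in the controls, against 250.5, 259.8 and 259.3 FPKM in the triple-deficient libraries. Control 1 was the lowest library and control 3 the highest, so the triple-deficient values fell inside the controls' range. The group means were both 257 FPKM, with an SD of 17.4 in controls and 5.26 in triple-deficient libraries (n = 3), and the 95% interval of the change was -0.14 to 0.13 (limma adjusted p = 0.999).

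Tfap2a and Tfap2b encode AP-2 alpha and AP-2 beta, transcription factors of amacrine and horizontal cells. Tfap2a (chromosome 13, 40713802 to 40738238) was at 19.15, 17.4 and 18.6 FPKM in the controls, against 17.4, 18.1 and 15.7 FPKM in the triple-deficient libraries. Triple-deficient 3 was lowest here too, and the other 2 triple-deficient values lay within the controls' range. The change was -0.10 (95% interval -0.25 to 0.05), and its unadjusted p of 0.152 was the smallest of the 9 genes (limma adjusted p = 0.946). Without triple-deficient 3 the change was -0.05 (-0.18 to 0.09), and with GC and length trends removed it was -0.11 (-0.25 to 0.04). The antisense gene Gm26688 overlaps Tfap2a and was at 0.494 to 1.22 FPKM.

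Tfap2b (chromosome 1, 19208908 to 19238845) was at 66.0, 65.3 and 68.6 FPKM in the controls, against 67.3, 64.4 and 62.9 FPKM in the triple-deficient libraries. Control 3 was highest and triple-deficient 3 lowest, with the other values between. The change was -0.04 (95% interval -0.14 to 0.07, limma adjusted p = 0.959). Tfap2b exceeded Tfap2a in 6 of 6 libraries, by a ratio of 3.63 ± 0.163 in controls and 3.81 ± 0.23 in triple-deficient libraries (SD, n = 3). In all, 4 of the 9 markers (Slc6a9, Slc18a3, Tfap2a and Tfap2b) had their lowest value in triple-deficient 3, as did 26.4% of all genes tested.

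**Figure D3:**
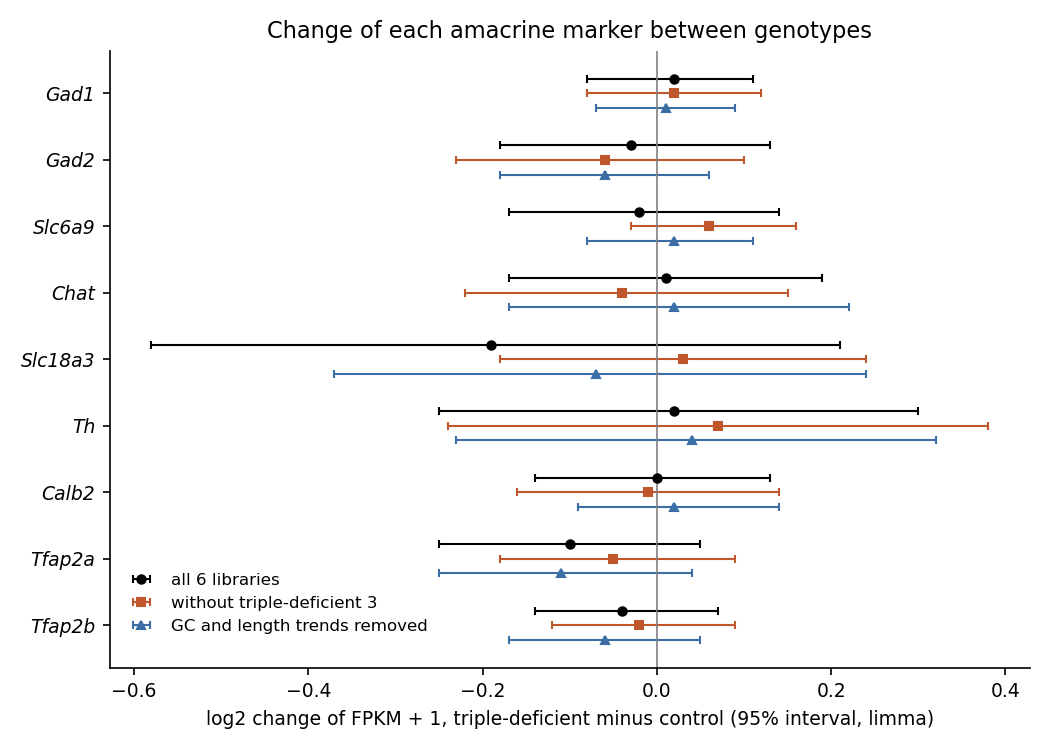
The horizontal axis is the change of log2(FPKM + 1), triple-deficient minus control, with its 95% interval from limma, for each of the 9 markers in all 6 libraries, without triple-deficient 3 and with GC and length trends removed. Every interval shown crosses 0, and that of Slc18a3 runs from -0.58 to 0.21 with all libraries and from -0.18 to 0.24 without triple-deficient 3.

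Likeness of pattern was described as the root mean square difference between values standardised over the 6 libraries, among 73 other amacrine genes whose mean reached 1 FPKM. Chat was most like Slc5a7, the high-affinity choline transporter of cholinergic neurons (0.25). Slc6a9 was most like Sdk1, a synaptic adhesion protein (0.27), Slc18a3 most like Lamp5, a membrane protein of some inhibitory neurons (0.28), and Tfap2a most like Amt, of the glycine cleavage system (0.33). Tfap2b was nearest to Sox2, a factor of starburst cells and glia (0.42), Gad1 and Calb2 to each other (0.43), Gad2 to Isl1 (0.46) and Th to Mgat4c (0.51). The median difference from the other genes was between 1.2 and 1.29 for each marker. Slc6a9, Slc18a3, Tfap2a and Tfap2b, and the gene most like each of them, all had their lowest value in triple-deficient 3. With 6 libraries and 73 candidates such values describe these libraries only.

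Beyond the markers, 75 other genes of amacrine transmission, fate and subtypes were examined, of which 68 reached the mean of 0.5 FPKM needed for testing. Of these, 0 passed limma's threshold and 3 had an unadjusted p below 0.05. Their median change was -0.009, and that of all genes tested was 0.003. The triple-deficient values lay wholly below the controls for 7 of the 68 and wholly above for 1, where 5.64% and 4.86% of all genes tested did so. The libraries are of whole retinas, so the values do not show which cells the transcripts of these genes came from.

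In GABA handling 0 of 8 genes passed the test (median 0.004). Slc38a1, a glutamine transporter, was at 86.2 ± 1.17 FPKM in the control group and 86.1 ± 2.94 FPKM in the triple-deficient group (SD, n = 3). Slc32a1 encodes the vesicular transporter that loads GABA and glycine into synaptic vesicles. It was at 39.6, 37.7 and 38.6 FPKM in the controls, against 38.0, 34.8 and 29.1 FPKM in triple-deficient 1, 2 and 3, a change of -0.19 (95% interval -0.39 to 0.01, limma adjusted p = 0.943). Its longest transcript has 61.9% GC, and the change was -0.08 without triple-deficient 3 and -0.05 with GC and length trends removed.

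In glycine handling 0 of 7 genes passed the test (median -0.063, and -0.002 without triple-deficient 3). Gphn, which anchors glycine and GABA receptors as gephyrin, was at 28.7 ± 1.26 and 31.3 ± 2.14 FPKM, and Gcsh, of the glycine cleavage system, at 27.4 ± 0.72 and 27.5 ± 2.18 FPKM (SD, n = 3). Gldc, the decarboxylase of that system, was at 9.40 ± 0.157 in controls and 8.82 ± 0.164 in triple-deficient libraries, groups that did not overlap. Its change was -0.08 (limma adjusted p = 0.946), and also -0.08 with GC and length trends removed. Slc6a9 exceeded Slc6a5, the neuronal glycine transporter GlyT2, by 12.7 to 21.5 times over the 6 libraries.

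Of 10 genes of cholinergic and starburst cells 0 passed the test (median -0.002). Isl1, a factor of starburst, ganglion and bipolar cells, was at 86.4 ± 1.78 and 85.9 ± 3.12 FPKM, and Ache, acetylcholinesterase, at 35.3 ± 0.428 and 33.8 ± 3.35 FPKM (SD, n = 3). Sox2 was at 13.2 ± 0.916 and 11.6 ± 1.04 FPKM (change -0.17, limma adjusted p = 0.943) and Rnd3, a small GTPase, at 17.6 to 20.4 and 19.5 to 20.4 FPKM. The dopaminergic list held 11 genes, of which 7 reached the filter and 0 passed the test (median -0.018). Ddc, which makes dopamine from the product of Th, was among the 4 below the filter, at 0.229 to 0.40 FPKM, and Slc6a3, the dopamine transporter, was at most at 0.09 FPKM.

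Qdpr and Pts, of tetrahydrobiopterin recycling and synthesis, averaged 52.3 ± 2.11 and 40.5 ± 0.479 FPKM over the controls, against 52.8 ± 3.05 and 39.7 ± 3.09 FPKM over the triple-deficient libraries (SD, n = 3). Spr, sepiapterin reductase of the same pathway, was at 14.0, 14.6 and 15.9 FPKM in the controls, against 12.3, 13.9 and 11.3 FPKM in triple-deficient 1, 2 and 3. The groups did not overlap, and the change of -0.23 (95% interval -0.42 to -0.05, unadjusted p = 0.0199) did not pass (limma adjusted p = 0.866). With GC and length trends removed it was -0.23 (-0.40 to -0.06), and without triple-deficient 3 it was -0.17 (-0.34 to 0.01).

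Among amacrine transcription factors 0 of 17 tested genes passed (20 listed, median -0.031), and Ptf1a, an early amacrine fate factor, was listed at 0 in all 6 libraries. Pax6, a factor of all amacrine cells that ganglion and horizontal cells share, was at 92.5 ± 1.84 and 94.9 ± 2.98 FPKM, and Prox1 at 53.9 ± 2.98 and 56.8 ± 1.56 FPKM (SD, n = 3). Prdm13, which acts downstream of Ptf1a in amacrine development, was at 13.7, 11.8 and 11.1 FPKM in controls 1, 2 and 3 and at 10.3, 9.27 and 8.68 FPKM in triple-deficient 1, 2 and 3. All 3 triple-deficient values lay below the controls, with a change of -0.34 (95% interval -0.54 to -0.14, unadjusted p = 0.00484) that did not pass over all genes (limma adjusted p = 0.668). The longest transcript of Prdm13 has 62.2% GC. With GC and length trends removed the change was -0.20 (95% interval -0.36 to -0.04, limma adjusted p = 0.767). Without triple-deficient 3 it was -0.29 (-0.51 to -0.07, limma adjusted p = 0.964).

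Bhlhe22, a basic helix-loop-helix factor of amacrine and bipolar subtypes, was at 21.5 ± 0.805 and 19.8 ± 0.293 FPKM (SD, n = 3), groups that did not overlap (change -0.12, limma adjusted p = 0.937). Meis1, Meis2 and Tfap2c, singled out after their values were seen, also had groups that did not overlap. Their changes were -0.04, -0.07 and -0.11 (limma adjusted p = 0.958, 0.946 and 0.943). Of the 17 tested transcription factors, 5 had triple-deficient values wholly below the controls and 0 wholly above. Over all genes tested these shares were 5.64% and 4.86%. By sign alone, 11 of the 17 changes were negative and 6 positive. Of 20 genes of peptides and subtypes 0 passed the test (median -0.003). Car2, carbonic anhydrase 2, had all triple-deficient values above the controls (270 ± 3.58 and 284 ± 4.08 FPKM, change 0.07, limma adjusted p = 0.946). With GC and length trends removed the change of Car2 was 0.09. Npy, neuropeptide Y, was at 66.8 ± 2.34 and 66.5 ± 5.09 FPKM and Sst, somatostatin, at 7.10 ± 0.0935 and 6.73 ± 0.69 FPKM.

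**Figure D4:**
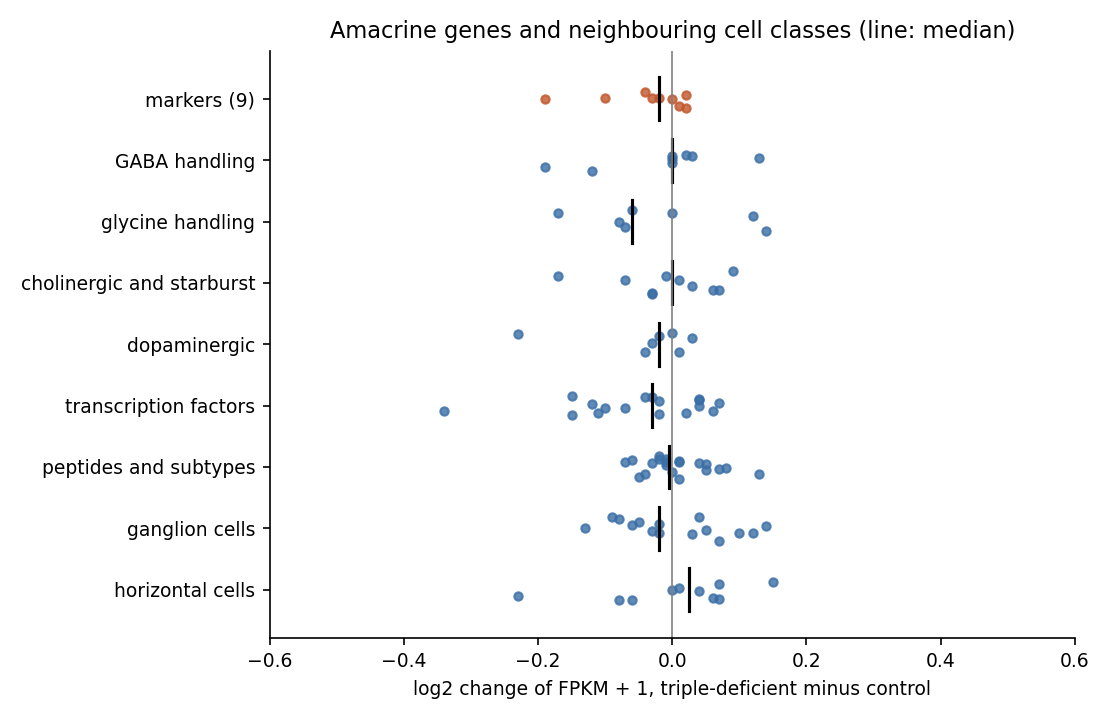
Points are the genes tested (mean 0.5 FPKM or more), the horizontal axis is the change of log2(FPKM + 1) between genotypes, and black lines are the medians of the 9 markers, 6 other amacrine lists, and lists of ganglion and horizontal cells. Medians lie between -0.063 (glycine handling, -0.002 without triple-deficient 3) and 0.025 (horizontal cells), and the lowest point, Prdm13, is at -0.34.

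Ganglion and horizontal cells share some of these markers, and their lists had 0 of 15 and 0 of 10 genes past the threshold, with medians of -0.02 and 0.025. Without triple-deficient 3 the medians were 0.036 and 0.034. Nefl and Sncg, abundant in ganglion cells, averaged 218 ± 12.6 and 156 ± 10.9 FPKM over the controls, against 206 ± 17.9 and 150 ± 5.80 FPKM over the triple-deficient libraries (SD, n = 3), and Pou4f1, a ganglion cell factor, was at 10.6 ± 0.655 and 9.57 ± 0.533 FPKM. In the horizontal cell list, Sept4 was at 117 ± 2.23 and 113 ± 1.61 FPKM, Tpm3 at 70.9 ± 3.23 and 72.9 ± 0.854 FPKM, and Onecut1, a horizontal cell factor, at 3.96 ± 0.382 and 3.24 ± 0.595 FPKM. The other cell classes held no gene past the threshold. Their medians were 0.012 for bipolar cells and for Müller glia, -0.008 for cones, 0.072 for rods, -0.073 for microglia, 0.043 for vessels, -0.272 for pigment epithelium (-0.463 without triple-deficient 3 and -0.165 without control 1) and -0.591 for lens. The last 2 lists rest on 7 and 4 tested genes, at summed levels of 33.9 to 58.9 and 40.7 to 61.7 FPKM over all libraries. The lens median rests on control 1, without which it was 0.027: Cryaa, a lens crystallin, was at 4.61 FPKM there and at 0 to 0.129 FPKM in the other 5 libraries.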

How the data were processed

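RNA of fresh retinas was extracted with TRIzol and made into stranded mRNA libraries, per the labels' protocols. The authors deposited 1 table of FPKM values per library. As tools, the submitters' processing notes name Bowtie2 2.3.5.1, TopHat2 2.1.1, Cuffdiff and Cufflinks 2.2.1, and as build mm10, without roles or settings. Annotation, strand setting and the scaling of libraries were not stated.

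FPKM values were used as deposited. The 14325 genes whose 6-library mean reached 0.5 FPKM were tested for a genotype difference, two-sided, with limma (version 3.58.1, R 4.3.3), using log2(FPKM + 1) values and a variance trend. Benjamini-Hochberg adjustment covered all genes tested (threshold 0.05), and intervals are 95%. The code was tested on simulated data. The members and lists were chosen with earlier results of these data known. The named genes are the 9 markers, the targeted genes, and from each list of other amacrine genes the 2 highest in mean and the 2 with the smallest p (for ganglion and horizontal cells, 2 and 1), whatever their direction; some genes that this rule names are not reported here. Depth was estimated from ratios of values below 0.3 FPKM and from 47 genes with 1 transcript, which put control 1 at 22.5 M fragments (interquartile range 21.9 to 23.1). GC content and length, known for 99.3% of genes tested, came from GENCODE M21 transcripts. Coordinates, and the promoter sequences found for 8 of the 9 markers, are from RefSeq (GRCm38.p6). Alternatives changed the pseudocount, filter, variance model, weights, scaling, GC trend and replicate block, or left out 1 library.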

Additional observations from a re-analysis of the deposited data

How the results depend on the processing

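None of the 9 markers passed the limma threshold in any of the 18 alternatives that kept it (Th was left out by the filter at a mean of 2 FPKM), where their adjusted p was at least 0.794 and their changes ran from -0.33 to 0.09. The number of genes called over the whole table was 4, and it was 2 with no filter, 2 with robust shrinkage and 3 to 11 when 1 library was left out (7, 10 and 11 without control 3, triple-deficient 1 and triple-deficient 3). The other lists held 0 called genes, and 0 to 1 when 1 library was left out, the 1 being Pmel of the pigment epithelium list without control 3. With the replicate block the number of genes called over the whole table was 4 and that of markers 0. The numbers are not known to mark littermates. Deviations from the group means correlated at 0.02, 0.11 and 0.07 between libraries of the same number. Between libraries of unlike number they correlated at -0.19 to 0.12, the highest for control 3 and triple-deficient 1. Deviations within a group are not independent, so these values cannot show whether the numbers mark pairs.

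Some changes turned in sign, none of them past the threshold, and the cause was not tested. With array quality weights the change was 0.035 for Slc6a9, -0.033 for Chat, 0.013 for Slc18a3, 0.016 for Calb2, -0.009 for Gcsh and 0.009 for Npy. Quantile normalization gave 0.044 for Calb2, 0.012 for Slc38a1, 0.005 for Isl1 and 0.002 for Npy. Removal of GC and length trends gave 0.016 for Slc6a9, 0.022 for Calb2 and 0.005 for Npy, and the same values with the replicate block. Leaving out 1 library gave -0.003 to 0.036 for Gad1, -0.068 to 0.025 for Gad2, -0.063 to 0.064 for Slc6a9, -0.037 to 0.066 for Chat, -0.328 to 0.030 for Slc18a3, -0.090 to 0.088 for Th and -0.057 to 0.037 for Calb2. Among other genes it gave -0.020 to 0.026 for Slc38a1, -0.053 to 0.058 for Gcsh, -0.037 to 0.013 for Isl1, -0.121 to 0.014 for Ache, -0.028 to 0.054 for Qdpr, -0.080 to 0.030 for Pts and -0.058 to 0.05 for Npy. With each library left out in turn, list medians ran from -0.086 to -0.002 for glycine handling, -0.036 to 0.054 for ganglion cells, -0.463 to -0.165 for pigment epithelium and -0.961 to 0.027 for lens. Depth limits Th most, with about 38 to 65 fragments per library.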
